A study of Mus musculus with 6 samples.

Results

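Genes of B cell specification and of pre-B and B cell receptor signalling were examined in LSK cells, the lineage-negative Sca-1+ c-Kit+ fraction of bone marrow that holds stem cells and multipotent progenitors. The set comprised 10 named genes (*Igll1*, *Vpreb1*, *Cd79b*, *Cd72*, *Syk*, *Btk*, *Blnk*, *Lyn*, *Ebf1* and *Foxo1*), and every probe that the array annotation tied to one of them was taken. Of these genes, 8 had a probe, of 10528 genes tested in all, and *Cd79b* and *Ebf1* had 2 probes each, which gave 10 member probes among 22119 tested. *Blnk* and *Lyn* had no probe tied to them in the annotation used and were not analysed here.

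Expression was measured on Illumina whole-genome mouse arrays in 3 pools of PU.1-deficient LSK cells (Spi1 fl/fl MxCre+) and 3 pools of wild-type LSK cells (Spi1+/+ MxCre+), all on a C57BL/6 background. Mice of both genotypes carried the MxCre transgene and were given polyIC at 5 µg/g of body weight in 2 injections spaced by 3 days. MxCre is driven by an interferon-responsive promoter, so recombination was not restricted to LSK cells or to blood cells, and polyIC itself provokes interferon in both genotypes. Cells were sorted on day 14 after the first injection from mice aged 6 to 12 weeks, and each pool combined several mice. The 3 pools of a genotype were described as independent samples, and their number limits the precision of every value.

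The pre-B cell receptor is assembled when an immunoglobulin heavy chain pairs with the surrogate light chain, which is made of the proteins of *Igll1* (lambda 5) and *Vpreb1*. It signals, like the later B cell receptor, through the CD79A and CD79B chains, from which the kinases Lyn and Syk pass the signal to the adaptor BLNK and the kinase Btk, and further to phospholipase C gamma 2, calcium and NF-κB. EBF1 and FOXO1 are transcription factors that establish the B lineage programme, and CD72 is an inhibitory co-receptor of B cells. Several of these genes, among them *Btk*, *Syk* and *Lyn*, are also used by myeloid cells and by multipotent progenitors.

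Values below are log2 intensities after background correction and quantile normalization. A fold change is PU.1-deficient minus wild type on that scale, and a probe was called higher or lower where its adjusted p from *limma* (Benjamini-Hochberg over all tested probes) was below 0.05. A probe counted as detected in a pool where its detection p was below 0.05. Across the arrays, 15639 to 18174 probes were detected. *Spi1*, which encodes PU.1, averaged 6.14 ± 0.43 in PU.1-deficient pools and 8.58 ± 0.10 in wild-type pools (SD, n = 3 each), a fold change of -2.44 (adjusted p = 0.00112, *limma*). The probe was still detected in 3 PU.1-deficient pools. Other signals moved with genotype as well. Of 9 neutrophil markers tested, 7 were higher in PU.1-deficient cells, and the summed linear intensity of the list was 73774.7 to 88544 in PU.1-deficient pools and 8058 to 10746 in wild-type pools. All 3 erythroid markers tested were lower, with sums of 166 to 463 in PU.1-deficient pools and 2129 to 6567 in wild-type pools. Of 5 basophil and mast cell markers, 2 were higher, and of 3 monocyte and macrophage markers, 2 were lower. Among the LSK markers, *Kit* had a fold change of -0.44 (adjusted p = 0.221), while *Cd34* and *Slamf1* were lower. Of 6 mature B cell markers only *Ms4a1* was tested, and it was near background, with linear intensities of 26.1 to 37.2 in PU.1-deficient pools and 26.3 to 34.3 in wild-type pools. The female marker *Xist* was higher in PU.1-deficient pools (fold change 5.62, adjusted p = 0.000157, *limma*). The labels do not give the sex of the mice. A difference in sex between the groups cannot be told apart from genotype for any member gene. In sorted pools, fewer cells of a type and less RNA per cell cannot be told apart. The part of these other signals in the results on the member genes was not tested.

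Of the 10 member probes, 3 were higher in PU.1-deficient cells (*Igll1*, *Vpreb1* and *Cd72*), 3 were lower (both probes of *Cd79b*, and *Btk*) and 4 did not pass the test (*Syk*, *Foxo1* and both probes of *Ebf1*). Over all tested probes, 8.79% were called, 4.89% higher and 3.91% lower. The PU.1-deficient and wild-type pools did not overlap for 7 of the 10 member probes, against 28% of all tested probes. Counted by gene, with the brightest probe of each, 3 of 8 genes were higher and 2 were lower, beside 6.61% and 5.59% of all named genes. The members were chosen with earlier results of these data known. The shares therefore cannot show an excess among the members, and no test was made over the set. The median fold change of the member probes was -0.05, as was that of all tested probes (-0.05), so the members did not shift in 1 direction. By place in the pathway, both surrogate light chain genes and the inhibitory co-receptor were higher, the signalling subunit and the Tec family kinase were lower, and the proximal kinase and both transcription factors had no called change. The plot of the member probes in each pool shows the separation of the groups.

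**Figure D1:**
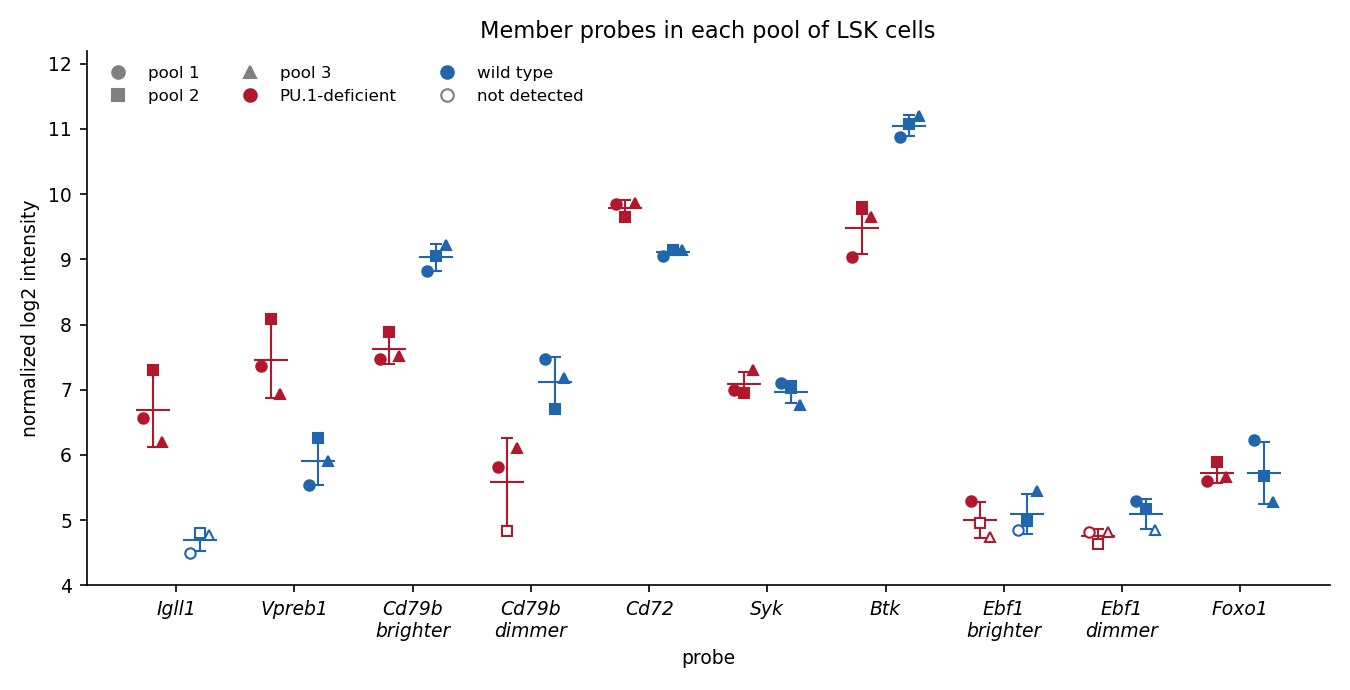
Normalized log2 intensity (y axis) of each member probe (x axis) in the 3 PU.1-deficient pools (red, left) and the 3 wild-type pools (blue, right), with symbols for the pool number, open symbols for pools in which the probe was not detected, and the mean and SD of each genotype as lines. *Igll1*, *Vpreb1* and *Cd72* sit higher in PU.1-deficient pools, *Cd79b* and *Btk* sit lower, and *Syk*, *Foxo1* and the brighter *Ebf1* probe overlap.

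The surrogate light chain genes were both higher where PU.1 was deleted. *Igll1* (probe ILMN_2436424) read 6.57, 7.30 and 6.20 in PU.1-deficient pools 1, 2 and 3, against 4.50, 4.80 and 4.78 in wild-type pools 1, 2 and 3. All 3 PU.1-deficient pools detected it and 0 of 3 wild-type pools did, and the lowest PU.1-deficient pool lay 1.40 above the highest wild-type pool. Since the wild-type value has only an upper bound, set by the dimmest detected signal on each array, the fold of *Igll1* in PU.1-deficient cells was at least 3.27 (at least 3.27-fold higher, measured difference 2.00, standard error 0.29, adjusted p = 0.0057, *limma*). Before any normalization the *Igll1* intensities were 181.4, 149.2 and 173.5 in PU.1-deficient pools and 104.6, 120.7 and 93.8 in wild-type pools, which also do not overlap. PU.1-deficient pool 2 was the lowest of its group before normalization and the highest after it, so the order of the pools within the genotype rests on the normalization. The bound holds for the background correction used, since the measured difference was 0.84 with no background correction and 1.21 with a larger offset of 50. The call held under each of 16 alternatives. No other probe of *Igll1* was tested. The annotation named no transcript for this probe, unlike the other member probes, and whether it also reads another gene was not checked.

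*Vpreb1* (probe ILMN_2846485) read 7.36, 8.09 and 6.93 in PU.1-deficient pools, against 5.54, 6.26 and 5.91 in wild-type pools, and was detected in all 6 pools. Every PU.1-deficient pool exceeded every wild-type pool, with a gap of 0.67. The fold change was 1.56 (standard error 0.33, adjusted p = 0.0265, *limma*), or 2.94-fold. Unnormalized intensities were 248.4, 210.5 and 229.6 in PU.1-deficient pools and 146.8, 187.2 and 119.3 in wild-type pools. As for *Igll1*, PU.1-deficient pool 2 was highest and pool 3 lowest after normalization, and wild-type pool 1 was the lowest of its group. The *Vpreb1* call was the less stable of the 2: it was kept in 2 of the 6 fits that left out 1 pool, with adjusted p-values of 0.0294 to 0.101, and was lost with no filter on detection (adjusted p = 0.0722). With no background correction the fold change was 0.87 and passed. *Vpreb1* has a near-identical paralog, *Vpreb2*, for which no probe was tested, and whether the *Vpreb1* probe also reads that gene was not checked.

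*Igll1* and *Vpreb1* lie next to each other on mouse chromosome 16, and their promoter windows are shown because both genes were higher while the factor deleted in these mice binds DNA with an ETS domain. The windows are RefSeq sequences of build GRCm38.p6, from 250 bases before to 50 bases after the annotated start, written 5′ to 3′ along the gene. Capitals mark GAGGAA, a PU.1-type match, on either strand (TTCCTC where it lies on the opposite strand). Other sequences that ETS factors may recognise are not marked.

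*Igll1* (chr16:16863936-16864235, minus strand): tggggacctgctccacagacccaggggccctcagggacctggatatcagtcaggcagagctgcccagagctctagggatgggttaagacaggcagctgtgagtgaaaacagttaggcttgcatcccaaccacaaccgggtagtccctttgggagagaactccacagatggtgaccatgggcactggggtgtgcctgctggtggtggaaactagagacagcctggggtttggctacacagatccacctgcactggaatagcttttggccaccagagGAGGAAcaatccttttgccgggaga
*Vpreb1* (chr16:16869206-16869505, minus strand): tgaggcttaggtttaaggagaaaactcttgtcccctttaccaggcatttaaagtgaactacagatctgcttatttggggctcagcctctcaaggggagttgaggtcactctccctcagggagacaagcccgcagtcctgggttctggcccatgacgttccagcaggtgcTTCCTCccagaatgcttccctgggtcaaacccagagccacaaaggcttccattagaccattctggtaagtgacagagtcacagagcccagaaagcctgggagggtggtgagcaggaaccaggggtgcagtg

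Both windows hold a single GAGGAA, which in *Igll1* begins at transcribed base 26 on the strand of the gene and in *Vpreb1* begins 81 bases before the start on the opposite strand. This match occurs in 28.3% of all 32851 promoter windows of the same length, so its presence does not set the pair apart. Both windows also hold CAGGTG, an E-box bound by E proteins, on either strand (20.2% of all windows). It begins 8 bases before the start of *Igll1* and 88 bases before the start of *Vpreb1*. The palindrome CCCNNGGG, which resembles the EBF1 motif, was found in the *Igll1* window and not in that of *Vpreb1* (13.7% of all windows). A match describes letters and is not evidence of binding.

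The tested genes nearest to the pair were compared after the values of the members had been seen, by position alone. Next along the chromosome beyond *Vpreb1*, *Top3b* (a DNA topoisomerase) read 9.43, 9.76 and 9.36 in PU.1-deficient pools, against 8.65, 8.80 and 8.92 in wild-type pools, a fold change of 0.73 that did not pass (adjusted p = 0.0548, *limma*). Its dimmer probe gave 0.25 (adjusted p = 0.693). *Ppm1f*, a protein phosphatase and the next tested gene, had a fold change of 0.65 on its brighter probe (adjusted p = 0.0937) and 0.83 on its dimmer probe, which passed (adjusted p = 0.0316). On the other side of *Igll1*, *Spag6l* had a fold change of 0.10 (adjusted p = 0.842), and *Ypel1*, beyond *Ppm1f*, one of -0.92 (adjusted p = 0.0878). Of the 12 tested genes nearest to *Igll1*, 6 on each side, only *Vpreb1* was called by its brightest probe. The plot in chromosomal order shows that the pools of the 2 genotypes were also apart for *Top3b* and *Ppm1f*, and, farther off on the other side, for *Mzt2* (fold change 0.66, adjusted p = 0.0543) and *Cebpd* (0.49, adjusted p = 0.167), all higher in PU.1-deficient pools without passing on the brightest probe. They were apart in the lower direction for *Ypel1*. Such separation was common, since the groups did not overlap for 3637 of 10528 named genes by brightest probe.

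**Figure D2:**
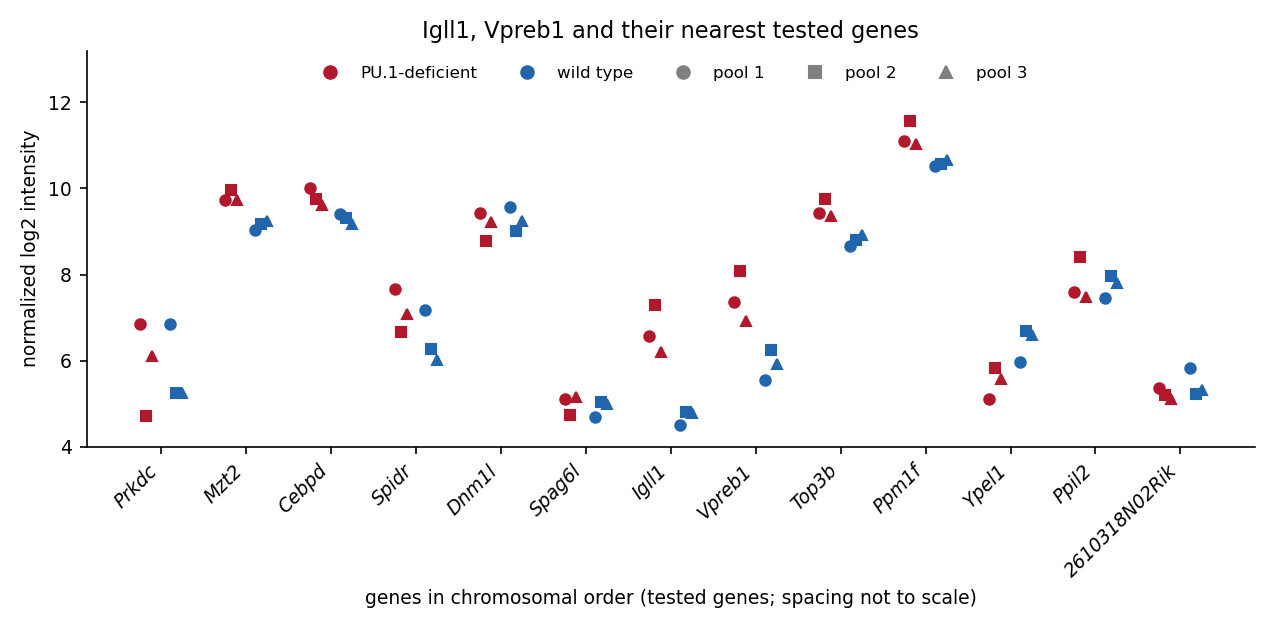
Normalized log2 intensity (y axis) of *Igll1*, *Vpreb1* and the nearest tested genes in the order in which they lie on chromosome 16 (x axis, brightest probe of each gene, spacing not to scale), in PU.1-deficient pools (red, left) and wild-type pools (blue, right). From *Igll1* to *Ppm1f* the PU.1-deficient pools lie above the wild-type pools, with fold changes of 2.00, 1.56, 0.73 and 0.65, of which the first and second passed the test. The groups did not overlap for 3637 of 10528 named genes by brightest probe.

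*Cd79b*, the gene of a signalling chain shared by the pre-B and the B cell receptor, was lower in PU.1-deficient LSK cells on both of its probes. The brighter probe (ILMN_2610822) read 7.48, 7.88 and 7.51 in PU.1-deficient pools, against 8.82, 9.05 and 9.22 in wild-type pools. It was detected in all 6 pools and the groups were apart by 0.94. The fold change was -1.41 (standard error 0.20, adjusted p = 0.00502, *limma*), that is 2.65-fold lower, and it passed under each of 16 alternatives. The dimmer probe (ILMN_2661523) read 5.82, 4.83 and 6.11 in PU.1-deficient pools, against 7.47, 6.70 and 7.18 in wild-type pools, and was not detected in PU.1-deficient pool 2. Its fold change of -1.53 (standard error 0.36, adjusted p = 0.0418, *limma*) had the same direction and a similar size. It passed in only 1 of the 6 fits without a pool (adjusted p of 0.0489 to 0.153) and not with the filter on detection removed (adjusted p = 0.108), and with no background correction it was -0.75. The partner chain *Cd79a* was on the list of receptor genes and had no tested probe. RefSeq held no *Cd79b* window among the sequences used.

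*Cd72*, an inhibitory co-receptor with a cytoplasmic motif that recruits the phosphatase encoded by *Ptpn6*, was higher in PU.1-deficient cells by the smallest margin of the called probes. Its probe (ILMN_2675669) read 9.85, 9.65 and 9.87 in PU.1-deficient pools, against 9.06, 9.15 and 9.14 in wild-type pools. The replicates were tight and the groups were apart by 0.50. The fold change was 0.67 (standard error 0.16, adjusted p = 0.0444, *limma*), or 1.59-fold. Before normalization the groups overlapped, with intensities of 992, 526 and 1123.9 in PU.1-deficient pools and 737.8, 858.6 and 530.7 in wild-type pools. Scaling arrays to equal medians, rather than quantile normalization, moved the median of all tested probes from -0.05 to -0.21. In that fit *Cd72* had a fold change of 0.39 and did not pass (adjusted p = 0.56, *limma*). Among fits without 1 pool it passed in 1 of 6, the fit that dropped PU.1-deficient pool 2, where the adjusted p was 0.0489, and the adjusted p reached 0.166 when wild-type pool 3 was dropped. The *Cd72* window is shown because it was the only one of the member windows with the longer PU.1-type match GAGGAAGT (either strand, overlapping GAGGAA), which 3.2% of all windows hold.

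*Cd72* (chr4:43454577-43454876, minus strand, GRCm38.p6, RefSeq, capitals as above): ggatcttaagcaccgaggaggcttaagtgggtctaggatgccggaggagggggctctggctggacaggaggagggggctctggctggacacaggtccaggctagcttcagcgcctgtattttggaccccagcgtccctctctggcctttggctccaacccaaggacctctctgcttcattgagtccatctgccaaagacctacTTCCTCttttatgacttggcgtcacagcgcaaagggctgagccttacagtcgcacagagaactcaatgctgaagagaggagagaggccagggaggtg

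The longer match begins 49 bases before the start, on the strand opposite to the gene, and none of the other motifs was found in this window.

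Of the kinases, *Btk* was lower and *Syk* showed no called change. *Btk*, the Tec family kinase that activates phospholipase C gamma 2, read 9.03, 9.77 and 9.65 in PU.1-deficient pools, against 10.88, 11.08 and 11.20 in wild-type pools (probe ILMN_1235934). The groups were apart by 1.11. The fold change was -1.57 (standard error 0.24, adjusted p = 0.00669, *limma*), that is 2.96-fold lower, and it passed under each of 16 alternatives, among them every fit without 1 pool (adjusted p of 0.0107 to 0.0428). The unnormalized intensities, 590.1, 571.6 and 984.1 in PU.1-deficient pools and 2335.3, 2926.3 and 1896.6 in wild-type pools, did not overlap either.

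*Btk* lies on the X chromosome, and *Xist*, the RNA that coats the inactive X of female cells, differed with genotype. Its brightest probe read 9.93, 10.01 and 11.06 in PU.1-deficient pools, against 4.48, 4.48 and 5.18 in wild-type pools, and in wild type it was detected in pool 3 only. The other *Xist* probes were detected in no wild-type pool. *Btk* in wild-type pool 3 was 11.20 after normalization, the highest of its group, and 1896.6 before it, the lowest of its group. Of 323 X-linked genes tested, 4.95% were higher and 9.6% were lower, beside 6.61% and 5.59% of all named genes. Among the 12 tested genes nearest to *Btk*, with a median fold change of 0.02, none was higher and 2 were lower, *Armcx6* (-1.29, adjusted p = 0.00861) and *Armcx2* (-1.04, adjusted p = 0.00909). The nearest tested genes on either side, *Timm8a1* and *Rpl36a*, had fold changes of -0.24 and 0.09 (adjusted p = 0.517 and 0.862, *limma*). The part of the *Xist* difference in the *Btk* result was not tested. The *Btk* window is shown as that of the called kinase.

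*Btk* (chrX:134583091-134583390, minus strand, GRCm38.p6, RefSeq, capitals as above): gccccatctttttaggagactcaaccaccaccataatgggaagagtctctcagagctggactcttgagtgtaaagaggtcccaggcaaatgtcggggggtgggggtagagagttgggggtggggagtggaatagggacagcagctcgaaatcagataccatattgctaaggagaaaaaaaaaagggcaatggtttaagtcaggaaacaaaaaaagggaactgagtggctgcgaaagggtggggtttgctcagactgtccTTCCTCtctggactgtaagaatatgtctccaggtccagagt

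Its single GAGGAA begins at transcribed base 10, on the opposite strand, and none of the other motifs was found in it. Across the members, 8 of 10 genes had a window in RefSeq (10 windows), and 6 of the 10 windows held GAGGAA, among them those of genes that were higher (*Igll1*, *Vpreb1*, *Cd72*), lower (*Btk*) and not called (1 of 2 windows each of *Syk* and *Ebf1*).

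*Syk*, the tandem-SH2 kinase that binds phosphorylated CD79 chains, read 6.999, 6.955 and 7.297 in PU.1-deficient pools, against 7.098, 7.034 and 6.770 in wild-type pools (probe ILMN_1252460). It was detected in all 6 pools and the groups overlapped. The fold change was 0.12 (95% confidence interval -0.32 to 0.55, adjusted p = 0.801, *limma*). It turned to -0.20 with scaling to equal medians, where the median of all tested probes was -0.21. Equal levels in the genotypes were not shown, since the interval leaves room for a difference either way.

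Neither transcription factor gene was called, and *Ebf1* was close to background in both genotypes. *Ebf1*, which together with PAX5 fixes B lineage identity, had 2 probes. The brighter probe (ILMN_1245076) read 5.29, 4.96 and 4.75 in PU.1-deficient pools, against 4.85, 4.99 and 5.44 in wild-type pools, with detection in PU.1-deficient pool 1 and in wild-type pools 2 and 3. The dimmer probe (ILMN_2707452) read 4.82, 4.63 and 4.81 in PU.1-deficient pools, against 5.29, 5.16 and 4.84 in wild-type pools, with detection in no PU.1-deficient pool and in wild-type pools 1 and 2. The groups of the dimmer probe did not overlap, but by a gap of only 0.03. The fold changes were -0.09 (95% confidence interval -0.63 to 0.45, adjusted p = 0.88, *limma*) and -0.35 (-0.78 to 0.09, adjusted p = 0.355). No change of *Ebf1* was detected, and at signals this near to background a lower level in PU.1-deficient cells could be measured only in part. *Foxo1* (probe ILMN_2656498), a forkhead factor needed for *Il7r* and recombinase gene expression, was detected in all 6 pools at 5.60, 5.90 and 5.66 in PU.1-deficient pools and at 6.23, 5.67 and 5.28 in wild-type pools. The wild-type pools spread over 0.95 and enclosed 3 of 3 PU.1-deficient values. Its fold change was -0.01 (95% confidence interval -0.62 to 0.60, adjusted p = 0.993), and its sign turned in 5 of 16 alternatives.

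**Figure D3:**
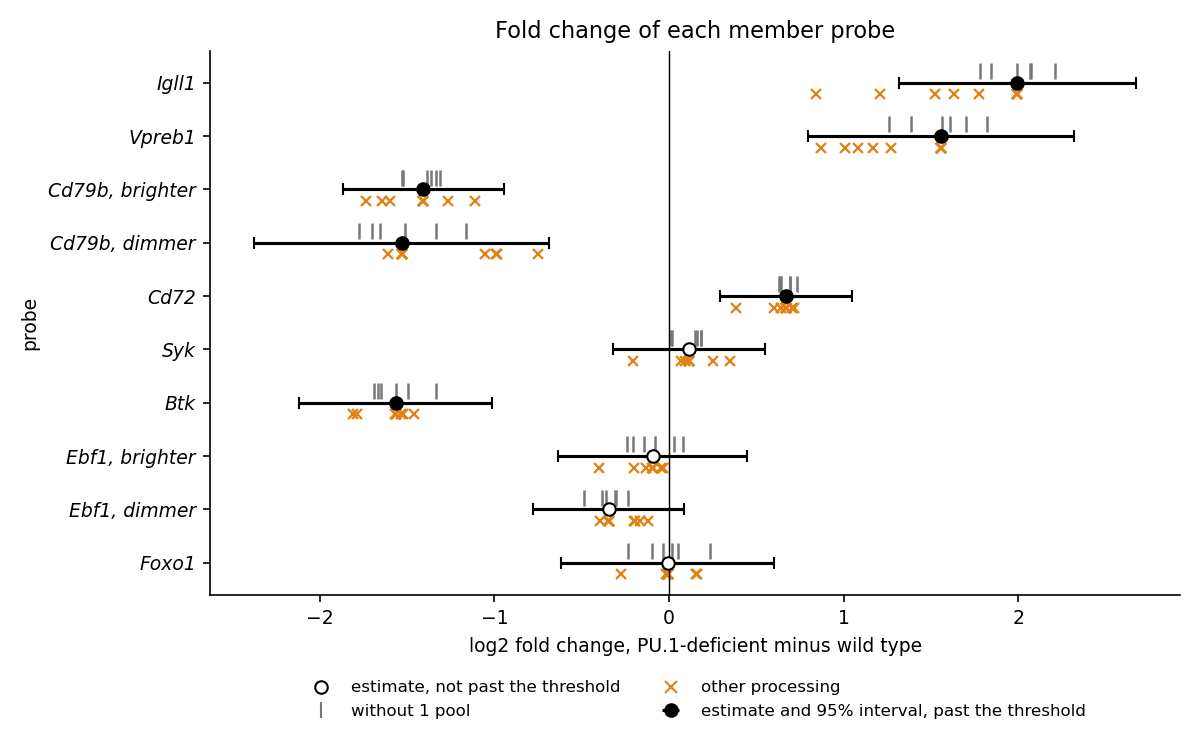
Fold change of each member probe (x axis, log2, PU.1-deficient minus wild type) with its 95% confidence interval from *limma* (circles and bars, filled where the adjusted p was below 0.05), the fold changes without 1 pool (grey ticks) and under other processing or without 2 pools together (orange crosses). The filled probes stayed on their side of 0 in every fit shown, with *Cd72* the closest to 0 at 0.39 with scaling to equal medians, while *Syk*, *Foxo1* and the brighter *Ebf1* probe crossed 0 in some.

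Further genes of the pathway were taken from 6 lists of 116 genes, of which 71 were tested. By the brightest probe of each gene, 7 were higher and 5 were lower, the other 59 were not called, and the list genes had a median fold change of -0.01. Over all named genes, 6.61% were higher and 5.59% were lower. The lists, too, were chosen with earlier results known, so no test was made over them.

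Among 11 tested factors of B cell specification, 1 was higher and 2 were lower. *Ets1*, an ETS factor of lymphoid cells, read 10.77, 9.65 and 10.37 in PU.1-deficient pools, against 7.36, 7.55 and 7.51 in wild-type pools (fold change 2.79, adjusted p = 0.0014, *limma*). *Pou2f2*, which encodes the octamer factor OCT2, read 5.66, 5.09 and 5.63 in PU.1-deficient pools, against 7.35, 8.17 and 8.32 in wild-type pools (-2.49, adjusted p = 0.00264), and 1 PU.1-deficient pool did not detect it. Its fold change was -1.38 with no background correction. *Bcl11a*, a zinc finger factor needed for lymphoid development, was lower by 2 probes, at -1.11 (adjusted p = 0.0192) and -1.21 (adjusted p = 0.0311), and its brighter probe lost the call in 4 of the 6 fits without a pool. The E protein genes *Tcf3*, *Tcf4* and *Tcf12* had fold changes of -0.42, -0.46 and 0.08 and did not pass, nor did *Ikzf1* (-0.15). *Pax5* had no tested probe.

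Of the receptor components, co-receptors and inhibitory receptors, 6 of 16 were tested, of which 2 were higher and 1 was lower. *Siglecg*, a sialic acid-binding inhibitor of B cell receptor signals, read 4.63, 4.35 and 4.70 in PU.1-deficient pools, none of which detected it, against 6.59, 6.62 and 6.74 in wild-type pools, which all did. By pool means, it was at least 2.91-fold lower in PU.1-deficient cells (measured difference -2.09, adjusted p = 0.000596, *limma*). That bound holds for the background correction used: the measured difference was -0.88 with no background correction and -1.22 with the offset of 50, and passed in both. *Ceacam1*, an inhibitory adhesion receptor, read 6.78, 5.94 and 6.72 in PU.1-deficient pools, against 4.76, 4.69 and 4.74 in wild-type pools, on its brightest probe, which detected it in none of the wild-type pools. The measured difference of that probe was 1.75 (adjusted p = 0.00517), and 0.70 with no background correction. The other probes gave smaller differences of 0.88 (adjusted p = 0.0829) and 0.31 (adjusted p = 0.434), did not pass, and were detected in 2 and 1 wild-type pools, so the probes disagree on the size. *Lair1*, an inhibitory collagen receptor, had a fold change of 1.49 (adjusted p = 0.00509), which was 0.72 with no background correction and narrowly missed the threshold with scaling to equal medians (adjusted p = 0.0509). Its other 2 probes gave 0.79 and 0.97 and did not pass. *Fcgr2b*, the inhibitory Fc receptor gene, had a fold change of -0.91 and did not pass (adjusted p = 0.248).

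Of 11 proximal kinases, phosphatases and their regulators, 1 was higher and 1 was lower. *Tec*, a kinase of the same family as *Btk*, was higher where *Btk* was lower. It read 8.92, 9.18 and 8.87 in PU.1-deficient pools, against 7.88, 8.13 and 8.41 in wild-type pools (fold change 0.85, adjusted p = 0.0412, *limma*), but lost the call in each of the 6 fits without a pool and with scaling to equal medians. *Ptpn6*, the gene of the phosphatase SHP-1, was lower by 0.82 on the log2 scale (fold change -0.82, adjusted p = 0.0299), and its other probe gave -0.79 (adjusted p = 0.116). That call was lost in 4 of the 6 fits without a pool. *Inpp5d*, the gene of the lipid phosphatase SHIP1, had a fold change of 0.09 and *Csk* one of -0.51, and neither passed.

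Among 21 tested genes of adaptors, lipid and calcium signalling, 1 was higher and none was lower. *Pik3ap1*, which encodes the adaptor BCAP that links the receptor to phosphoinositide 3-kinase, had a fold change of 1.33 (adjusted p = 0.0358, *limma*). Its other probe gave 0.57 (adjusted p = 0.432), and the call was lost in 4 of the 6 fits without a pool, with scaling to equal medians and without a filter. *Plcg2*, the phospholipase downstream of *Btk*, was detected in all 6 pools and had a fold change of -0.10 (95% confidence interval -0.68 to 0.48).

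Of 14 tested genes of the Ras, NFAT and NF-κB branches, 2 were higher and none was lower. *Prkcb*, the gene of protein kinase C beta, which couples Btk and phospholipase C gamma 2 to NF-κB in B cells, had the largest fold change of the lists. It read 10.535, 9.996 and 10.392 in PU.1-deficient pools, against 6.574, 6.317 and 5.755 in wild-type pools (fold change 4.09, or 17.1-fold, adjusted p = 0.000176, *limma*). Its other 2 probes gave 3.93 (adjusted p = 0.000607) and 3.38 (adjusted p = 0.00435), and the call held under each of 16 alternatives, with a fold change of 3.09 with no background correction. *Rac2*, a small GTPase of blood cells, had a fold change of 0.82 (adjusted p = 0.0366) that was lost in 5 of the 6 fits without a pool and with scaling to equal medians.

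Of 8 tested genes of recombination and the early B lymphoid stage, none was higher and 1 was lower, and the median fold change was -0.58 (-0.34 with undetected genes at their bound). By pool means, *Il7r*, the interleukin-7 receptor chain, was at least 1.49-fold lower (measured difference -1.19, adjusted p = 0.0043, *limma*). The measured difference was -0.45 with no background correction. The receptor tyrosine kinase gene *Flt3* had a fold change of -1.21 with an adjusted p of 0.0621, and *Dntt*, the terminal transferase gene, had -0.86 with an adjusted p of 0.343. *Rag1* signals lay at background in every PU.1-deficient pool and were detected in 2 wild-type pools, at levels that allowed no fold. Beside 6.61% of all named genes called higher, the lack of a higher call among these 8 does not set the list apart. Of the 8, 3 were detected in no PU.1-deficient pool. The plot by list sets the called genes beside those that did not pass.

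**Figure D4:**
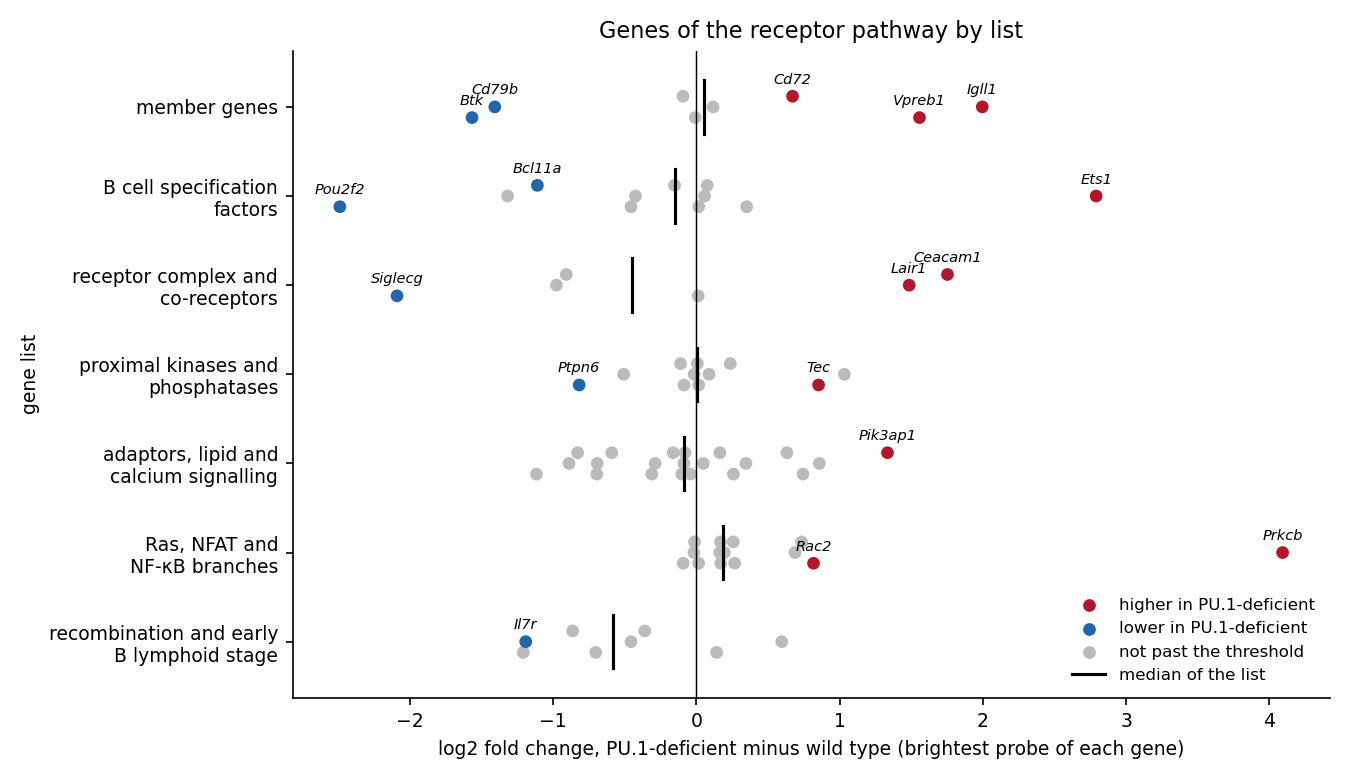
Fold change (x axis, log2, PU.1-deficient minus wild type, brightest probe) of the 8 member genes and of the 71 tested genes of the 6 pathway lists (rows), with each point a gene, red where higher, blue where lower, grey where the test was not passed, and the median of each list as a black line. *Prkcb* at 4.09 and *Ets1* at 2.79 lie farthest to the right and *Pou2f2* at -2.49 farthest to the left.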

How the data were processed

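Per the labels, RNA of sorted LSK pools was amplified and hybridized to Illumina arrays. The authors deposited unnormalized probe intensity values with detection p-values, and a second table of log2 values made with *limma* (its version is not given in the sources used here). The deposited intensities were normalized again with neqc in *limma* 3.58.1 (R 4.3.3), which estimated background through the detection p-values, added an offset of 16 and applied quantiles. On shared probes the largest difference to the authors' log2 values was 0.0256. In the intensity table the headings of each pair of columns stand exchanged, so the kind of column was read from its values and the pool from the heading. Of 45281 probes, 22119 were tested (at least 1 array with detection p below 0.05), of which 16494 had 1 gene name, 9 several and 5616 none. Two-group fits used lmFit and eBayes without a block, with Benjamini-Hochberg adjustment over all tested probes. The procedure was also run on simulated data with independent noise in each probe and array. That run lacked deviations shared between arrays, and no result here rests on it. The main probe of a gene was the brightest over 6 pools. All member probes are named, and of each list the called genes, up to 4 in each direction, and *Spi1* and *Xist* as checks. Other genes named (neighbours, unchanged list genes, markers) were chosen after their values were seen. Members and lists were chosen with earlier results of these data known. Alternatives changed normalization, background correction, offset, filter, source of log2 values, block, array weights, variance prior and pools. Motifs were searched with Python 3.11.15.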

Additional observations from a re-analysis of the deposited data

How the results depend on the processing

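*Igll1*, the brighter *Cd79b* probe and *Btk* were called under each of 16 alternatives. *Vpreb1* was called in 11, the dimmer *Cd79b* probe in 10 and *Cd72* in 10, with no change of direction. Member probes called higher were 1 to 3 and those called lower 2 to 3 without 1 pool. Over all probes these fits gave 603 to 1005 higher and 306 to 1112 lower (1081 and 864 with all pools), and 6 to 13 of the pathway list genes were called (12 with all pools). The count of member probes higher was 1 without PU.1-deficient pool 1 and without each of the wild-type pools. With scaling to equal medians, 526 probes were higher and 893 lower, so 37.1% of calls were higher in place of 55.6%, the median of all probes was -0.21 and that of the member probes -0.24. The member median was 0.054 at a detection p below 0.01, which removed both *Ebf1* probes. Array weights gave 3189 higher and 4120 lower and 35 list genes. Leaving out PU.1-deficient pool 2 and wild-type pool 1 together, an alternative chosen after seeing the data, gave 2837 and 2878 and 28 list genes, with 3 member probes higher and 3 lower. *Syk* was -0.20 with scaling to equal medians. *Foxo1* was 0.16 with array weights and 0.16 with both pools left out, and -0.23 to 0.23 without 1 pool. The brighter *Ebf1* probe was -0.24 to 0.083 without 1 pool. The labels do not say that the numbers pair the pools, so the main fit had no block. The deviations of same-numbered pools correlated at 0.72, 0.61 and -0.15, and those of differently numbered pools at -0.68 to 0.52. Whether the pools were paired is not settled by these values. With the replicate block, 1596 probes were higher and 1681 lower, 27 list genes were called, and the member probes called remained 3 higher and 3 lower. The causes of these changes were not tested. Probes near background (*Ebf1*, wild-type *Igll1*) have signals too low for a size to be given beyond the bounds stated.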

Other observations

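Of the 12 tested genes nearest to *Syk* on chromosome 13, 4 were higher in PU.1-deficient cells, none was lower and 8 did not pass, beside 6.61% of all named genes higher. Neighbours of all 8 member genes were looked up after the member values had been seen, and those of *Syk* had the most higher calls. Of the neighbours of *Cd72*, 1 was higher and 1 was lower. Of those of *Ebf1*, 1 was higher and none was lower. *Diras2*, a Ras family GTPase, was the nearest tested gene on one side of *Syk*. It read 8.18, 8.89 and 7.87 in PU.1-deficient pools, against 6.44, 6.38 and 6.48 in wild-type pools (fold change 1.88, adjusted p = 0.00535, *limma*). *Auh*, a mitochondrial enzyme gene and the nearest tested gene on the other side, had a fold change of 1.05 (adjusted p = 0.0074, *limma*). *Gadd45g*, a stress-induced growth regulator, had one of 1.25 (adjusted p = 0.0226) and *Cks2*, a cofactor of cyclin-dependent kinases, one of 1.00 (adjusted p = 0.00935). *Syk* itself had 0.12.

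Of the 12 tested genes nearest to *Foxo1*, 1 was higher and none was lower, beside 6.61% and 5.59% of all named genes. *Mgst2*, a microsomal glutathione transferase, was the second tested gene from it on chromosome 3 and read 13.15, 13.01 and 12.89 in PU.1-deficient pools, against 9.01, 8.27 and 8.48 in wild-type pools (fold change 4.43, adjusted p = 8.89e-05, *limma*). Of the 12 tested genes nearest to *Cd79b* on chromosome 11, 3 were higher and 1 was lower, beside the same shares of 6.61% and 5.59%. The nearest tested genes on either side, *Tcam1* and *Icam2*, had fold changes of -0.08 and 0.07 (adjusted p = 0.876 and 0.911, *limma*). *Pecam1*, an adhesion molecule of leukocytes and endothelium, had a fold change of 2.14 (adjusted p = 0.00187), *Ern1*, a sensor of the unfolded protein response, one of 0.89 (adjusted p = 0.0151) and *Tex2* one of 0.92 (adjusted p = 0.0223). *Milr1*, an inhibitory receptor of mast cells, had one of -1.35 (adjusted p = 0.00866).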
